A study of Gallus gallus with 2 samples.

Results

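MicroRNA precursor loci were the loci of the expression table whose gene name starts with gga-mir or gga-let and holds a single name, and whose status was not a failed estimate. By this rule 420 of 22848 loci were members, carrying 404 names, 5 of the loci with let-7 names. The rule used names only, not the measured values. A microRNA gene is transcribed as a long primary transcript, from which Drosha with its partner DGCR8 cuts a short hairpin, the precursor. Exportin-5 carries the hairpin to the cytoplasm, Dicer trims it, and the mature strand is loaded into an Argonaute protein to repress matching mRNAs. Many microRNA genes lie within introns of protein-coding host genes, and in skin miR-205 and the miR-200 family are known for roles in the epidermis.

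Black and white skin of the Lueyang chicken, a Chinese breed in which both occur, were compared. The black-skin library (BS) and the white-skin library (WS) each held skin of the left back from females of 16 weeks, frozen as pieces of 8 mm. Each was 1 library of mRNA pooled from 3 birds, so the spread between birds is unknown, no test was possible, and every difference below is between these 2 libraries. The values are FPKM, fragments counted relative to transcript length and to all mapped fragments, from mRNA primed with random hexamers. They measure RNA of the loci, not mature microRNAs, and the read counts behind each value are not known from them. All coordinates are those of the table, which the processing notes place on galGal4.

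Libraries of bulk skin hold several cell types, and lower RNA of a cell type cannot be told apart from fewer of its cells. Of 6 melanocyte marker genes found, all were above 0, with summed levels of 148 FPKM in BS against 60.4 FPKM in WS. Of these, 5 were at least 2-fold higher in BS, while *MITF* had 26.9 FPKM in BS against 30.4 FPKM in WS. Of 7 keratinocyte markers 5 were above 0, summing to 814 FPKM in BS against 1502 FPKM in WS, while *KRT5* and *KRT75* were listed at 0 in both. Summed levels were 3858 FPKM in BS against 7879 FPKM in WS for 3 fibroblast markers, of which *COL1A2* alone was at least 2-fold lower in BS and *LUM* had 311 FPKM in BS against 303 FPKM in WS. For 3 skeletal muscle markers, with *TNNC2* listed at 0, they were 17867 FPKM in BS against 9391 FPKM in WS. The 2 smooth muscle markers summed to 863 FPKM in BS against 324 FPKM in WS, and the 2 red cell markers to 1505 FPKM in BS against 3745 FPKM in WS. Their part in the differences of microRNA loci was not tested.

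Most microRNA loci were listed at 0. A value above 0 was found for 43 of the 420 loci, or 10.2%, against 81.4% of all loci. Of the 43 loci, 41 were above 0 in both libraries, 2 in BS only and 0 in WS only, and 377 were at 0 in both. Part of the zeros belonged to 24 chromosomes and contigs on which every locus was at 0 in both libraries. These held 39 of the members, 21 of them on Z and 15 on unplaced contigs. On the other chromosomes 11.3% of 381 members were above 0, against 90.4% of loci. For comparison, over all chromosomes 17.9% of 308 loci of small structural RNAs, small nucleolar and spliceosomal RNAs among them, were above 0.

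Whether a microRNA locus had a value went with the interval the table gave it. Listed spans ran from 59 to 900102 bp, since loci that overlap are given 1 common interval. On chromosomes with values, 151 members had an interval of their own. Of these, 127 spanned 59 to 113 bp, the size of a hairpin, and 2 were above 0. The other 24 spanned 844 to 54168 bp, with a median of 2268.5 bp, and all 24 were above 0. How these longer extents were set is not known from the values. Where reads set them, a value above 0 was fixed in advance. Among other loci with their own interval, the pattern was similar. Of 203 such loci of 59 to 113 bp, the 201 with a name were all at 0 and the 2 without one were above 0, while 94.1% of 14394 loci spanning 200 bp or more were above 0. The annotated hairpin alone was the listed locus in nearly all short cases. Counted over all chromosomes, those without values included, 138 of 144 short members with their own interval and a RefSeq match had the length of their RefSeq entry. The libraries held cDNA fragments selected to be longer than these hairpins.

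The remaining 230 members shared their interval with another locus, which for 8 of them was only a further microRNA locus, and 17 of them, or 7.39%, were above 0. Of the 213 that were listed at 0, 208 lay in an interval where a locus outside the 420 was above 0. In 11 cases the same microRNA name was listed for 2 loci of 1 interval. In 7 of these 1 of the pair was above 0, among them gga-mir-196-1 and gga-mir-1604, and in 4 neither was.

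**Figure D1:**
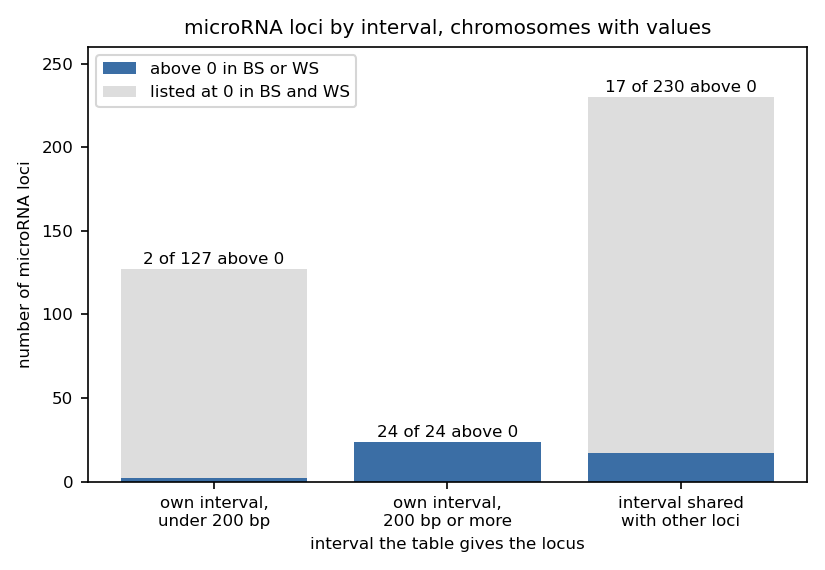
Number of microRNA loci (y axis) by the interval the table gives them (x axis), on chromosomes with values. Blue marks loci above 0 in BS or WS and gray marks loci listed at 0 in both, with 2 of 127 short loci, 24 of 24 longer loci and 17 of 230 loci in shared intervals above 0.

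The 2 loci above 0 in BS only were also the 2 short ones. gga-mir-22, on chromosome 19 from 5352096 to 5352195, spans 100 bp and was listed at 48926 FPKM in BS and at 0 in WS. Its value was the fifth highest of all loci in BS and made up 2.19% of the summed FPKM of that library. gga-mir-1647, on chromosome 28 from 1817973 to 1818079, spans 107 bp and was listed at 2726 FPKM in BS and at 0 in WS. miR-22 is a microRNA conserved among vertebrates and best known from heart and skeletal muscle of mammals.

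FPKM divides by transcript length, so the same number of fragments gives a larger value on a shorter locus. The software marked both loci as not tested, a status it gives where too few fragments align. Of 2360 loci above 0 with that status, 11 reached 100 FPKM in a library, and these 2 alone reached 1000 FPKM. FPKM in BS times the listed span, in units of 1000 bp, was 4893 for gga-mir-22 and 292 for gga-mir-1647. For gga-mir-3523, which was not marked so, it was 260. Over the listed spans the 2 values would thus stand for many fragments, which conflicts with the status. The length used in the division is not known. The 2 values, and the rank and share of gga-mir-22, therefore cannot be read as abundance. The loci within 20000 bp of gga-mir-22 and gga-mir-1647 were above 0 in both libraries. A RefSeq host is here a gene that overlaps the hairpin in RefSeq, on either strand, so it need not share a transcript with the microRNA. RefSeq places gga-mir-22 in *TLCD2*, which the table lists merged with the splicing factor gene *PRPF8* at 54.8 FPKM in BS against 64.2 FPKM in WS. *WDR81*, 2441 bp beyond gga-mir-22, had 15.4 FPKM in BS against 14.4 FPKM in WS. *REXO1*, the RefSeq host of gga-mir-1647, ends 83 bp before it and had 12.1 FPKM in BS against 16.1 FPKM in WS. *SERPINF2*, a serpin gene 18396 bp from gga-mir-22, was lower in BS, with 50.9 FPKM in BS against 104 FPKM in WS. So was ENSGALG00000023787, 2132 bp from gga-mir-22, with 5.69 FPKM in BS against 11.8 FPKM in WS. ENSGALG00000023788, 12873 bp from it, was higher in BS, with 45.5 FPKM in BS against 25.5 FPKM in WS. *ATP8B3*, 4243 bp from gga-mir-1647, was lower in BS, with 6.17 FPKM in BS against 15.7 FPKM in WS. Over the whole table, 136 loci had at least 1 FPKM in BS and 0 in WS, and 102 the reverse.

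The 41 microRNA loci above 0 in both libraries had a median of 5.41 FPKM in BS against 5.35 FPKM in WS. Of these, 27 were under 10 FPKM in both libraries and 3 reached 100 FPKM in one of them. By any margin 18 were higher and 23 lower in BS, and 26 of the 41 differed by less than 1.5-fold. These counts have no share of all loci beside them.

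**Figure D2:**
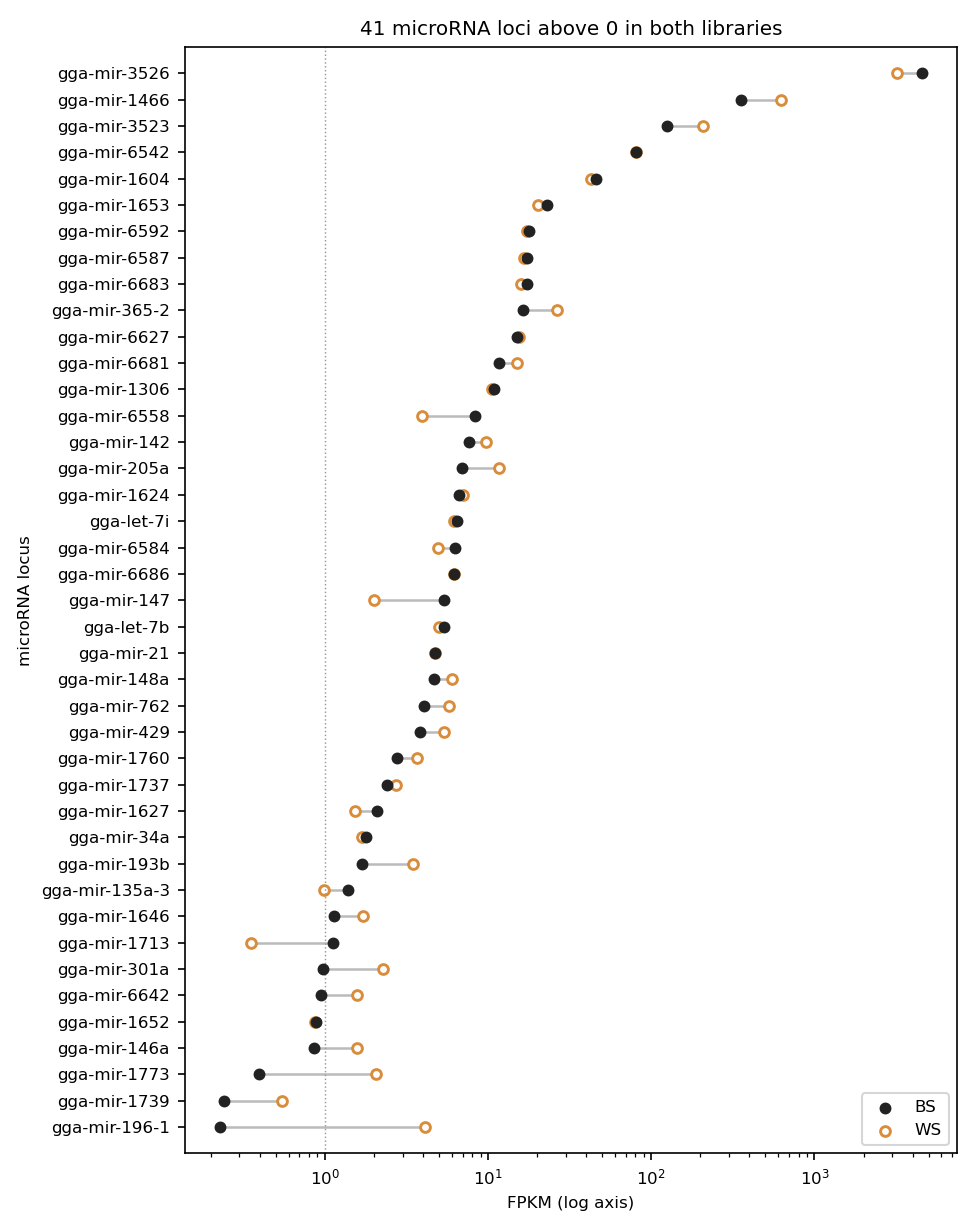
FPKM on a log axis (x axis) of the 41 microRNA loci above 0 in both libraries (y axis, ordered by BS), with filled points for BS, open points for WS and a gray line between them. Most pairs lie close together, and the widest gap is that of gga-mir-196-1, with 0.227 FPKM in BS against 4.11 FPKM in WS.

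The highest of them carried the values of loci the size of whole genes. gga-mir-3526 had 4551 FPKM in BS against 3186 FPKM in WS over an interval of 2333 bp. RefSeq places this hairpin in *CST3*, the gene of the secreted protease inhibitor cystatin C, and *CST3* is not a gene name of the table. gga-mir-1466 had 356 FPKM in BS against 621 FPKM in WS over 4844 bp, and its RefSeq host is *THY1*, a surface glycoprotein of fibroblasts and T cells. gga-mir-3523 had 125 FPKM in BS against 209 FPKM in WS over 2080 bp, and its host is *DUSP1*, a phosphatase that switches off MAP kinases. *THY1* and *DUSP1* are likewise no gene names of the table. On the scale of log2((FPKM in BS + 1)/(FPKM in WS + 1)), gga-mir-3526 was higher in BS at 0.51, and gga-mir-1466 and gga-mir-3523 were lower at -0.80 and -0.74.

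The pattern continued down the order. gga-mir-6542 had 81.0 FPKM in BS against 81.2 FPKM in WS, with *SRF*, a transcription factor of muscle and cytoskeleton genes, as its RefSeq host. gga-mir-1604 had 46.1 FPKM in BS against 43.1 FPKM in WS, with the scaffold protein gene *SHANK3* as host. gga-mir-6592 had 17.7 FPKM in BS against 17.4 FPKM in WS (*ZZEF1*), and gga-mir-6683 had 17.3 FPKM in BS against 16.0 FPKM in WS (*AVEN*, an inhibitor of apoptosis). None of these 4 hosts is a name in the table. Of the 10 loci highest in BS and above 0 in both libraries, 7 had such a host.

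In all, 15 of the 43 loci above 0 had a RefSeq host symbol that the table does not name. The next named genes to the left and right of these 15 loci were looked up, and 28 of the 30 lay within 5 coding genes of the host in RefSeq. For 13 of the 15 loci both sides did. RNA of the hairpin, of its primary transcript and of the host mRNA cannot be told apart in such loci. Among the rest, gga-mir-6627 had 15.0 FPKM in BS against 15.6 FPKM in WS (*SMYD5*), and gga-mir-6681 had 11.7 FPKM in BS against 15.1 FPKM in WS (*DIDO1*). gga-mir-6584 had 6.29 FPKM in BS against 4.93 FPKM in WS (*SOCS6*, a brake on cytokine signaling). gga-mir-762 had 4.07 FPKM in BS against 5.76 FPKM in WS (*BCL7A*, of the SWI/SNF chromatin remodeling complex). One of the 15 belongs to the microRNA pathway itself, since gga-mir-1306, at 10.9 FPKM in BS against 10.5 FPKM in WS, lies in *DGCR8*, whose RNA is the textbook case of an mRNA cut by Drosha.

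By contrast, 11 loci above 0 had a RefSeq host that the table names in another interval, so that microRNA locus and host are listed apart. The host of gga-mir-147 was at 0 in both libraries, and that of gga-mir-22 has only a value merged with *PRPF8*. gga-mir-21, known for its rise in injured and fibrotic tissue, had 4.74 FPKM in BS against 4.77 FPKM in WS, and *RPS6KB1*, a kinase of the mTOR pathway, had 11.3 FPKM in BS against 11.4 FPKM in WS. gga-let-7i had 6.43 FPKM in BS against 6.17 FPKM in WS, beside 10.3 FPKM in BS against 11.6 FPKM in WS for *MON2*. gga-let-7b had 5.39 FPKM in BS against 5.04 FPKM in WS, beside 7.38 FPKM in BS against 9.45 FPKM in WS for *PPARA*. The let-7 family is known for restraining growth genes in differentiated cells, and these 2 loci differed little between the libraries. Further let-7 names stand in merged rows, which the rule left out.

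In the same group, gga-mir-6587 had 17.3 FPKM in BS against 16.6 FPKM in WS, and the Notch antagonist *NUMB* had 20.0 FPKM in BS against 25.7 FPKM in WS. gga-mir-365-2 had 16.4 FPKM in BS against 26.6 FPKM in WS, with *RAB11FIP4* at 1.94 FPKM in BS against 1.79 FPKM in WS. Here the microRNA locus was lower in BS and its host was not. An unnamed locus in the interval of gga-mir-365-2 had 2.07 FPKM in BS against 4.09 FPKM in WS. gga-mir-1652 was at 0.884 FPKM in BS against 0.873 FPKM in WS, near the Polycomb gene *CBX2* at 0.881 FPKM in BS against 0.378 FPKM in WS.

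The host was named within the same interval for 3 loci above 0. gga-mir-1653 had 23.1 FPKM in BS against 20.3 FPKM in WS, while *LPP*, a focal adhesion protein, had 6.57 FPKM in BS against 6.65 FPKM in WS. gga-mir-1624 had 6.62 FPKM in BS against 7.01 FPKM in WS, beside 18.0 FPKM in BS against 25.7 FPKM in WS for *NDST2*, a heparan sulfate enzyme. gga-mir-6558 had 8.37 FPKM in BS against 3.96 FPKM in WS, beside 67.1 FPKM in BS against 65.1 FPKM in WS for the proteasome subunit *PSMD1*. So gga-mir-6558 was higher in BS by a ratio of 2.12 where the level of *PSMD1* was close to equal. The log2 difference of gga-mir-6558 with 1 FPKM added was 0.92. RefSeq also lists *HTR2B*, a serotonin receptor gene, at this hairpin. Whether the hairpin shares a transcript with either gene was not tested.

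The 41 loci with at least 1 FPKM in one library were compared by the log2 difference with 1 FPKM added to each value, which understates the difference of low loci. These 41 include gga-mir-22 and gga-mir-1647 and leave out gga-mir-1739 and gga-mir-1652. At least 2-fold higher in BS were 3 of 41, or 7.32%, where the share of all 15020 loci was 4.61%. At least 2-fold lower in BS were 2 of 41, or 4.88%, where the share of all loci was 5.69%. The median log2 difference was -0.01 for the microRNA loci, a value that turned positive under rescaling, at up to 0.11, and -0.06 for all loci. Over the 39 microRNA loci above 0 in both libraries it was -0.05, and -0.07 over all such loci. Of the 3 higher ones, 2 were gga-mir-22 and gga-mir-1647, which were listed at 0 in WS and whose values cannot be read as abundance. The 2 lower ones, gga-mir-196-1 and gga-mir-1773, reached 1 FPKM in WS only. The 2 shares rest on these few loci, so no conclusion is drawn from setting them beside those of all loci.

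**Figure D3:**
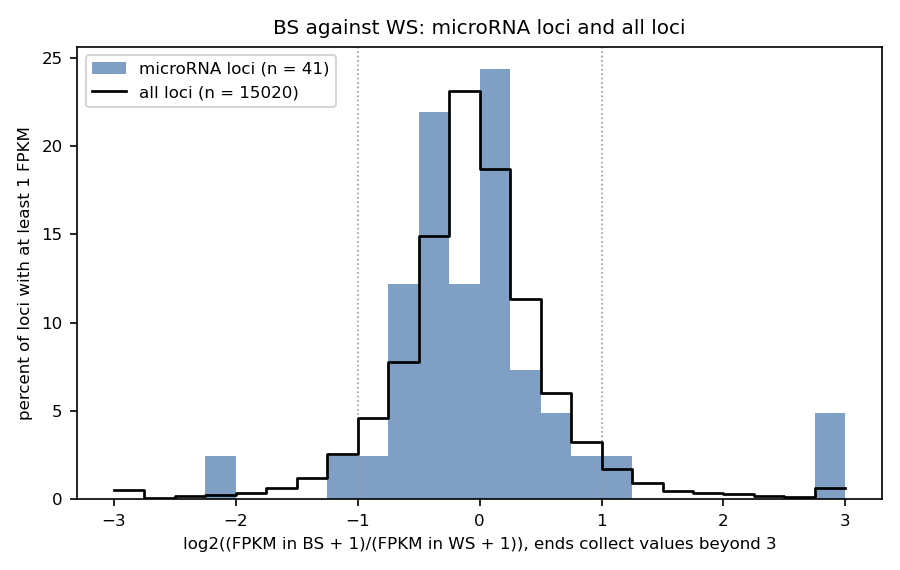
Percent of loci with at least 1 FPKM in a library (y axis) by log2((FPKM in BS + 1)/(FPKM in WS + 1)) (x axis), with blue bars for the 41 microRNA loci and a black line for all 15020 loci. Dotted lines mark 2-fold, which 3 microRNA loci exceed as higher and 2 as lower in BS, and the outermost bins collect larger differences.

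The third locus higher in BS was gga-mir-147, with 5.41 FPKM in BS against 2.0 FPKM in WS, a log2 difference of 1.10. miR-147 is known in mice for its induction in macrophages by Toll-like receptors. The locus has an interval of its own on chromosome 10, from 12333767 to 12338805. The table puts its RefSeq host *C10H15ORF48*, under an older name, and another locus named gga-mir-147 on a contig where every locus was at 0, so the host gave no value to set beside it. The next locus, 6387 bp away, was ENSGALG00000005703, with 23.1 FPKM in BS against 18.3 FPKM in WS.

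The largest difference among microRNA loci above 0 in both libraries was that of gga-mir-196-1. This locus had 0.227 FPKM in BS against 4.11 FPKM in WS, 18.1 times as much in WS, with a log2 difference of -2.06. It lies on chromosome 27, from 3547041 to 3555103, in the HOXB cluster, whose homeobox genes set position along the body axis. In vertebrates miR-196 genes lie within HOX clusters, and their product cleaves *HOXB8* mRNA. Next to it, an unnamed locus 437 bp away had 0.269 FPKM in BS against 1.23 FPKM in WS. On the other side *HOXB9*, at a distance of 8666 bp, had 2.47 FPKM in BS against 10.8 FPKM in WS, a log2 difference of -1.76. These 3 neighboring loci were all lower in BS.

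The following loci of the cluster, which share an interval of 221510 bp, went other ways. The most abundant of 3 loci named *HOXB8* had 10.7 FPKM in BS against 5.07 FPKM in WS. The others had 2.67 FPKM in BS against 1.69 FPKM in WS, and 0.038 FPKM in BS against 0.181 FPKM in WS. An effect of miR-196 on *HOXB8* was not tested. The locus named HOXB-1 had 16.4 FPKM in BS against 0.112 FPKM in WS. *HOXB5* had 38.2 FPKM in BS against 44.2 FPKM in WS, and *HOXB3* had 5.92 FPKM in BS against 6.81 FPKM in WS, so both were close to equal. Within the cluster the direction therefore changed from locus to locus.

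**Figure D4:**
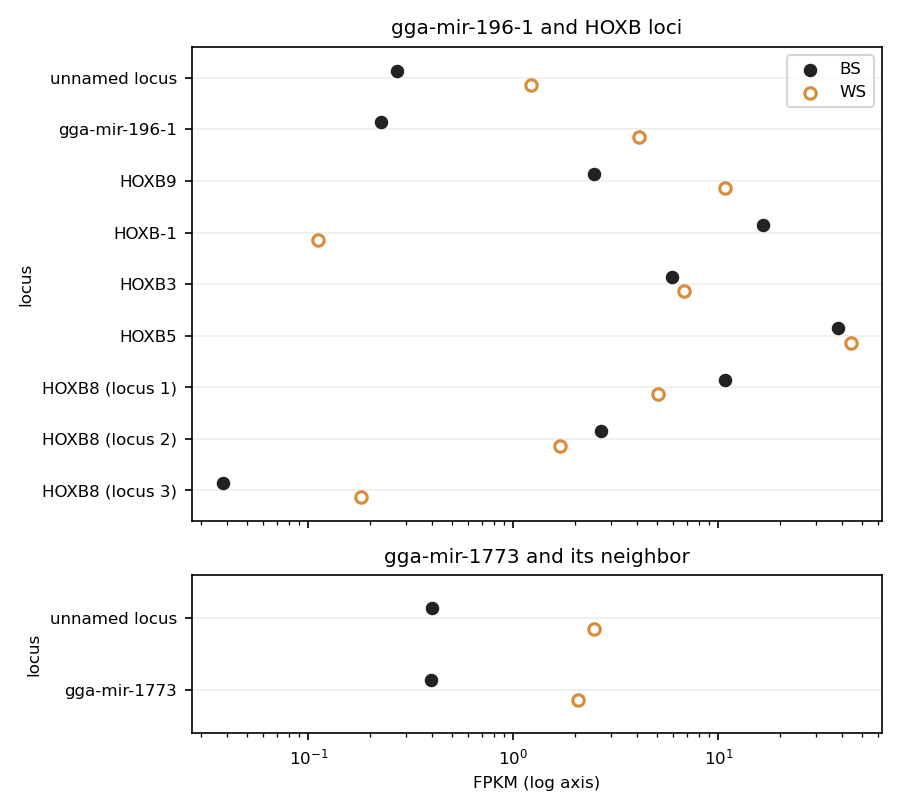
FPKM on a log axis (x axis) of gga-mir-196-1 and the HOXB loci next to it (upper panel) and of gga-mir-1773 and its neighbor (lower panel), with filled points for BS above open points for WS, 1 library each. The unnamed locus, gga-mir-196-1 and HOXB9 are lower in BS, whereas HOXB-1 has 16.4 FPKM in BS against 0.112 FPKM in WS.

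Other microRNA loci of the HOX clusters had less to show. gga-mir-1713, between *HOXD3* and *HOXD4* on chromosome 7, had 1.12 FPKM in BS against 0.355 FPKM in WS, a log2 difference of 0.65. *HOXD4*, 1696 bp away, had 1.07 FPKM in BS against 0.505 FPKM in WS, and *HOXD3* had 6.04 FPKM in BS against 6.70 FPKM in WS. gga-mir-10b, by *HOXD4*, was listed at 0. gga-mir-196-2 and gga-mir-1732-1 were also at 0, in the interval of *HOXA10*, which had 3.69 FPKM in BS against 5.19 FPKM in WS. gga-mir-10a and gga-mir-196-3 lay on contigs with no value in either library.

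The second locus lower in BS was gga-mir-1773 on chromosome 20, from 8109136 to 8110286, with 0.397 FPKM in BS against 2.07 FPKM in WS and a log2 difference of -1.13. It stands between gga-mir-1a-1 and gga-mir-133a-2, a pair of muscle microRNAs that are transcribed together, both listed at 0. An unnamed locus 2408 bp away had 0.399 FPKM in BS against 2.46 FPKM in WS, so both loci were lower in BS. Skeletal muscle marker genes had a higher sum in BS, with 17867 FPKM in BS against 9391 FPKM in WS. Nearly all of this sum was *ACTA1*, at 17804 FPKM in BS against 9387 FPKM in WS. *MYH1* had 63.5 FPKM in BS against 4.27 FPKM in WS, and *TNNC2* was listed at 0. The part of muscle content in the difference of gga-mir-1773 was not tested.

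Without the added 1 FPKM, 3 of the 41 loci above 0 in both libraries were at least 2-fold higher and 5 at least 2-fold lower in BS. Beside gga-mir-147, the higher ones were gga-mir-1713 and gga-mir-6558, given above. Beside gga-mir-196-1 and gga-mir-1773, the lower ones were gga-mir-193b, with 1.68 FPKM in BS against 3.46 FPKM in WS, gga-mir-301a, with 0.976 FPKM in BS against 2.27 FPKM in WS, and gga-mir-1739, with 0.241 FPKM in BS against 0.545 FPKM in WS. gga-mir-193b shares its interval with ENSGALG00000003051, of which 1 locus had 1.53 FPKM in BS against 3.49 FPKM in WS and the other 0.463 FPKM in BS and 0 in WS. gga-mir-193b and gga-mir-365 are known as neighbors transcribed together, and gga-mir-365-1 in that interval was listed at 0. These values are low, and the number of reads behind them is unknown. No share of all loci by this plain ratio was taken, so the counts of 3 and 5 have no background beside them.

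Of the 43 loci above 0, 6 overlap no RefSeq gene and 8 have a host without a symbol. All 5 loci that were at least 2-fold lower in BS by the plain ratio were among these 14, none of which was 2-fold higher, and 7 of the 14 differed by more than 1.5-fold. These counts by plain ratio have no share of all loci beside them. Those of the 14 not given elsewhere follow. gga-mir-6686 had 6.19 FPKM in BS against 6.15 FPKM in WS, and gga-mir-148a, a microRNA that targets DNA methyltransferase mRNA in human cells, had 4.70 FPKM in BS against 5.98 FPKM in WS. gga-mir-34a, which p53 induces in mammals, had 1.78 FPKM in BS against 1.70 FPKM in WS. gga-mir-1760 had 2.78 FPKM in BS against 3.65 FPKM in WS, and gga-mir-1627 had 2.10 FPKM in BS against 1.53 FPKM in WS. These 5 differed by less than 1.5-fold. gga-mir-1737 had 2.40 FPKM in BS against 2.74 FPKM in WS, in the interval of *LYSMD4* at 23.1 FPKM in BS against 18.7 FPKM in WS. gga-mir-1646 had 1.14 FPKM in BS against 1.72 FPKM in WS, in the interval of the microtubule-severing gene *KATNAL1* at 9.75 FPKM in BS against 8.83 FPKM in WS. In both of these intervals the microRNA locus was lower and the named gene higher in BS, by less than 2-fold.

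Among the loci with an unnamed host, 2 more were near 1 FPKM. gga-mir-135a-3 had 1.38 FPKM in BS against 0.995 FPKM in WS, and gga-mir-6642, placed by RefSeq in the transcription factor gene *ASCL2*, had 0.943 FPKM in BS against 1.58 FPKM in WS.

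Grouped by the tissue in which a microRNA is known to be high, at most 2 loci of a group were above 0. Over all 420 microRNA loci the share above 0 was 10.2%, and groups this small allow no comparison with it. Of 5 epidermal loci 2 were above 0. gga-mir-205a, which sustains epidermal progenitors in mice, had 6.95 FPKM in BS against 11.7 FPKM in WS, a log2 difference of -0.68, and its host *PLXNA2* had 4.79 FPKM in BS against 6.79 FPKM in WS. gga-mir-429 of the miR-200 family, which keeps epithelial cells from a mesenchymal state, had 3.83 FPKM in BS against 5.35 FPKM in WS, a difference of -0.39. Both were lower in BS, as were 5 of the 5 keratinocyte markers above 0, with a sum of 814 FPKM in BS against 1502 FPKM in WS. Their part in the microRNA difference was not tested. gga-mir-200a, gga-mir-200b and gga-mir-205b were listed at 0.

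Of 6 leukocyte loci 2 were above 0 and both were lower in BS, by less than 2-fold. gga-mir-142, a microRNA of blood cells, had 7.67 FPKM in BS against 9.67 FPKM in WS, and gga-mir-146a, which restrains NF-kB signaling, had 0.859 FPKM in BS against 1.58 FPKM in WS. The 2 leukocyte marker genes went the other way, with a sum of 45.9 FPKM in BS against 36.7 FPKM in WS. gga-mir-155 was listed at 0. Of 7 loci listed under smooth muscle and fibroblasts, gga-mir-21 and gga-mir-22 were above 0, as given above. The gga-mir-29 and gga-mir-199 loci were at 0. The list holds gga-mir-22 here although it is best known from heart and skeletal muscle, and its value cannot be read as abundance. Of 7 ubiquitous loci, let-7i and let-7b had values.

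No locus of the skeletal muscle, red cell, endothelial and pigment cell groups had a value, although the tissues' mRNAs were present. The 6 muscle loci were 0 in both libraries while the actin gene *ACTA1* was at 17804 FPKM in BS against 9387 FPKM in WS. A merged row of the muscle pair gga-mir-133a-1 and gga-mir-1a-2, which the rule left out, had 2.10 FPKM in BS against 1.84 FPKM in WS. gga-mir-144 and gga-mir-451, the red cell pair, were at 0 while the globin gene *HBAA* was at 1154 FPKM in BS against 2903 FPKM in WS. The mature microRNAs of these loci were not measured here.

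For many of the loci at 0 the table gave the host in the same interval instead. There were 155 such members at 0, and 139 host loci with at least 1 FPKM. Their median was 13.8 FPKM in BS against 13.9 FPKM in WS, and the median log2 difference was -0.10. At least 2-fold higher in BS was 1 of 139 hosts, or 0.719%, and 2 were lower, or 1.44%, below the shares of 4.61% and 5.69% of all loci.

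The 1 host higher in BS was *TRPM1*, with 4.51 FPKM in BS against 1.14 FPKM in WS, a log2 difference of 1.36. *TRPM1* encodes a cation channel of melanocytes, and its interval holds gga-mir-204-2 and gga-mir-1574, both at 0. In mammals the related miR-211 comes from an intron of *TRPM1*. The 6 melanocyte markers had a sum of 148 FPKM in BS against 60.4 FPKM in WS, with *MITF* slightly lower in BS. *RAB38*, another gene of melanosome biology and the host of gga-mir-1657, had 1.90 FPKM in BS against 0.601 FPKM in WS, which is under 2-fold with 1 FPKM added, at 0.86. It was singled out after its values were seen.

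The 2 hosts lower in BS were *NTM*, a neural adhesion molecule and host of gga-mir-1601, with 191 FPKM in BS against 573 FPKM in WS, and *PCDH1*, a protocadherin of epithelia and host of gga-mir-1702, with 37.1 FPKM in BS against 81.6 FPKM in WS. The most abundant host was *VIM*, the intermediate filament of mesenchymal cells and host of gga-mir-1661, with 2156 FPKM in BS against 1741 FPKM in WS.

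Hosts of well-known microRNAs were nearly equal or moderately apart. *EGFL7*, the endothelial host of gga-mir-126, had 40.9 FPKM in BS against 27.9 FPKM in WS, beside 37.5 FPKM in BS against 37.7 FPKM in WS for the endothelial marker *CDH5*. *MYH7B*, the myosin gene that carries gga-mir-499, had 48.9 FPKM in BS against 83.6 FPKM in WS. The pantothenate kinase genes hold the related miR-103 and miR-107. *PANK3*, host of gga-mir-103-1, had 36.7 FPKM in BS against 34.9 FPKM in WS, and *PANK1*, host of gga-mir-107, had 17.4 FPKM in BS against 20.7 FPKM in WS. *PANK2*, host of gga-mir-103-2, was further apart, with 17.0 FPKM in BS against 24.6 FPKM in WS, a log2 difference of -0.51. *SREBF2*, the regulator of cholesterol synthesis that holds gga-mir-33, had 59.1 FPKM in BS against 71.0 FPKM in WS. *NFYC*, host of gga-mir-30c-1 and gga-mir-30e, had 53.9 FPKM in BS against 59.4 FPKM in WS. The guidance genes that hold the miR-218 pair were also close to equal, at 9.14 FPKM in BS against 9.39 FPKM in WS for *SLIT2* (gga-mir-218-1) and 32.0 FPKM in BS against 31.8 FPKM in WS for *SLIT3* (gga-mir-218-2).

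MicroRNA genes often stand in clusters that share a primary transcript. With the listed intervals of members at most 10000 bp apart on a chromosome, 52 clusters held 112 members. Of the 52, 11 were 1 name listed more than once. In a shared interval the place of the hairpin is not known, so hairpins of a cluster can lie further apart than this limit. In 13 clusters a member was above 0, and in 1 more than 1 member was. That one, on chromosome 14, held gga-mir-6686, at 6.19 FPKM in BS against 6.15 FPKM in WS, and gga-mir-193b, 1.68 FPKM in BS against 3.46 FPKM in WS. Of the 13, 7 were 1 name listed for 2 loci of an interval, so 6 held different microRNAs. Clusters were set by distance, and a common transcript was not shown.

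The genes that make and use microRNAs were close between the libraries. Of 38 names in the list, which counts older and newer names of a gene, 24 were found and 22 had at least 1 FPKM. At least 2-fold apart were 0 of the 22, by size alone, since no test was possible. Of all loci 4.61% were higher and 5.69% lower, and at such shares few of 22 genes would be 2-fold apart. By any margin 3 were higher and 19 lower in BS, counts that have no share of all loci beside them. The median log2 difference of the 22 genes was -0.16, beside -0.06 over all loci. After rescaling of the libraries the median of the 22 genes was -0.037 in the case nearest to 0. The rescalings, of about 0.13 at most, were too small to turn its sign, so they could not test it. *RNASEN*, the gene of Drosha, had 4.28 FPKM in BS against 5.19 FPKM in WS, *XPO5*, of Exportin-5, had 33.7 FPKM in BS against 36.4 FPKM in WS, and *DICER1* had 5.23 FPKM in BS against 5.91 FPKM in WS. The Argonaute genes were lower in BS by small amounts. *EIF2C2*, of the slicing Argonaute, had 4.37 FPKM in BS against 6.40 FPKM in WS, at -0.46 the largest difference of the list. *EIF2C3* had 7.21 FPKM in BS against 9.32 FPKM in WS, and *EIF2C4* had 26.6 FPKM in BS against 32.1 FPKM in WS. *RAN*, the GTPase that exports hairpins with Exportin-5, was among the 3 higher ones, with 142 FPKM in BS against 116 FPKM in WS. *DGCR8* is no name of the table, and the nearest value is that of gga-mir-1306.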

How the data were processed

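The deposited table gives FPKM per locus for each library, which the authors computed from reads mapped with Bowtie, per the study's methods, with Cuffdiff and the build galGal4 per the submitters' processing notes. It lists 22853 loci, of which 5 failed estimates were left out. Its columns of the authors' own comparison (fold change, p and q values) were not used. Deposited starts count from 0 and are given here from 1, and overlapping loci share 1 interval. Differences were log2((FPKM in BS + 1)/(FPKM in WS + 1)), with a pseudocount of 1, among loci with at least 1 FPKM in a library, and at least 2-fold was called. With 1 library per color no test was run. The study reports total and aligned reads of each library, with most valid reads of both unmapped, but counts per locus are not known. Alternatives were pseudocounts of 0.1 and 5, a minimum of 5 FPKM or none, 3 rescalings, other overlap and cluster limits, and, added after the data were seen, leaving out loci marked as not tested. Members were matched by name to RefSeq (GRCg7b), where 391 of 420 matched. The length of a hairpin was that of its RefSeq entry. Hosts were genes that overlap this entry by RefSeq coordinates, on either strand, and the order of flanking genes was also that of RefSeq. RefSeq coordinates were not set against those of the table. An interval was called shared where any other locus, members included, shared at least 1 base.

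The text names every member above 0 in both libraries, the 10 highest in each, the members of a textbook tissue list above 0, their hosts, and the core processing genes. The members and lists were chosen with earlier results of these data known. Python 3.11.15, pandas 2.3.3, numpy 2.4.6 and matplotlib 3.10.9 were used, and the code was tested on simulated data. No microRNA sequence was in the sources used here.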

Additional observations from a re-analysis of the deposited data

How the results depend on the processing

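No paired analysis was possible because each skin color has 1 library. With a pseudocount of 0.1, 8 microRNA loci were at least 2-fold apart and 5 higher in BS, and with a pseudocount of 5 there were 2 and 0 were lower, with gga-mir-147 at 0.57, gga-mir-196-1 at -0.80 and gga-mir-1773 at -0.39. With at least 5 FPKM required, 3 were apart and 0 lower, since fewer loci enter. No share of all loci was taken at these settings. Leaving out loci marked as not tested, an alternative chosen after the data were seen, 3 were apart and 1 higher, since gga-mir-22 and gga-mir-1647 drop out. Rescaling BS to equal totals without the 50 most abundant loci adds 0.13 to the log2 ratio before 1 FPKM is added, and less for low loci after it, and the median became 0.11 for microRNA loci and -0.037 for the processing genes. The median of the microRNA loci thus has no fixed sign. The rescalings, of about 0.13 at most, were too small to turn the direction of a locus at least 2-fold apart, so they could not test it. The same holds for the sign of the median of the processing genes. The counts above 0, of clusters, and of members sharing an interval with a locus outside the 420 stayed within 1.5 times of the reported ones. Pooled RNA, unknown read numbers per locus and common intervals limit what these values show.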

Other observations

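The table also holds 14 rows in which a microRNA name is merged with another name, which were not members. The locus merging ENSGALG00000018047 and gga-mir-1561, on chromosome 18 from 6413153 to 6420371, had 4.10 FPKM in BS against 82.2 FPKM in WS, a log2 difference of -4.03. It lies just before the interval of gga-mir-365-2, at 16.4 FPKM in BS against 26.6 FPKM in WS. The locus merging gga-let-7j and gga-let-7k had 17.6 FPKM in BS against 9.44 FPKM in WS, and that merging gga-let-7d and gga-let-7f had 8.31 FPKM in BS against 9.29 FPKM in WS, so merged let-7 loci went both ways. The locus with gga-mir-222a had 9.94 FPKM in BS against 20.2 FPKM in WS. gga-mir-302d and gga-mir-367, from a cluster known in stem cells, were merged with a status of not tested, at 21.1 FPKM in BS, and had 0 in WS. The muscle pair gga-mir-133a-1 and gga-mir-1a-2 had 2.10 FPKM in BS against 1.84 FPKM in WS.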
